A study of Mus musculus with 22 samples.

Results

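The report concerns 5 genes of lipid mediator and histamine pathways, 4 of enzymes and 1 of a receptor, Ptgs2, Ptger2, Alox5, Daglb and Hdc, taken by symbol from the 655 endogenous genes of a NanoString mouse myeloid panel and followed through all 22 samples and 5 treatment groups. The samples were RNA of G-MDSCs (granulocytic myeloid-derived suppressor cells), which resemble neutrophils and can hold back T cells in tumours. They came from mammary tumours of female FVB-Neu-N mice, grown from 50000 implanted cells of NT2.5, a line from a spontaneous mammary tumour, in mice 7 to 8 weeks old. The stated purpose was to look for transcript changes behind an impaired function of the treated cells. All groups carried the tumour for 3 days before 3 weeks of dosing. Entinostat, a drug that blocks histone deacetylases of class I, was given alone by gavage at 5 mg/kg each day to the first group (4 samples). Entinostat with anti-PD-1 (4 samples), entinostat with anti-CTLA-4 (4 samples) and the triple combination of entinostat with both antibodies (4 samples) added checkpoint-blocking antibodies, each at 100 µg per mouse 2 times a week. Vehicle mice (6 samples) received 0.5% methylcellulose and isotype antibodies. No group had an antibody without entinostat, and whether these mice were also given an anti-HER2 antibody, used in parts of the study, is not known. The model is 1 cell line in 1 strain, and cells were selected for Ly6G on magnetic columns with 2 passes.

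Prostaglandin E2, leukotrienes, the endocannabinoid 2-arachidonoylglycerol and histamine are small signalling molecules made by enzymes rather than encoded by genes. Cyclooxygenase-2, the product of Ptgs2, starts prostaglandin synthesis from arachidonic acid, and prostaglandin E2 acts on myeloid cells through receptors such as EP2, the product of Ptger2, which raises cyclic AMP. The product of Alox5, 5-lipoxygenase, makes the precursor of leukotrienes in neutrophils and other myeloid cells. Diacylglycerol lipase beta, from Daglb, cleaves diacylglycerol to 2-arachidonoylglycerol, which can in turn be a source of arachidonic acid, and histidine decarboxylase, from Hdc, makes histamine, a product known best from mast cells and basophils and also made by immature myeloid cells.

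The bases just before the transcription start are shown for 3 genes whose levels went up and down together over the samples, Ptgs2, Alox5 and Hdc, and for Daglb, which followed them least. They are the sense strand from RefSeq, build GRCm38.p6, 150 bases ending at the base before the start, at chr1:150099881-150100030 (plus strand) for Ptgs2, chr6:116461179-116461328 (minus) for Alox5, chr2:126618679-126618828 (minus) for Hdc and chr5:143464343-143464492 (plus) for Daglb. Capitals mark every match to the motifs listed after the sequences.
Ptgs2: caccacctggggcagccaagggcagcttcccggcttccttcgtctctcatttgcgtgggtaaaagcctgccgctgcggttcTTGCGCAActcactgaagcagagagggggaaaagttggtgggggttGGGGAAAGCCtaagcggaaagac
Alox5: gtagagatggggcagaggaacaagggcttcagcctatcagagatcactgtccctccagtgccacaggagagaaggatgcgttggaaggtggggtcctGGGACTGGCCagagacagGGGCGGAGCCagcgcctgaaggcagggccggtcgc
Hdc: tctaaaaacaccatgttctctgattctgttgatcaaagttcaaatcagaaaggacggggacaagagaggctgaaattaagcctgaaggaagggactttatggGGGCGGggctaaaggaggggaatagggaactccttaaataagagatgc
Daglb: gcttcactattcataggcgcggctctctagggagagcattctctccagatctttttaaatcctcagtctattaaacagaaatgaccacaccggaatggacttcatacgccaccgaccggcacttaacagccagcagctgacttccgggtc

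The motifs were searched in the 250 bases before the start in 32851 RefSeq promoters, on both strands, N standing for any base. They were the NF-kB consensus, GGG and CC with 5 free bases between them (in 45.8% of promoters), the C/EBP consensus TTGCNNAA (9.56%), the cyclic AMP response element TGACGTCA (1.55%) and its core TGACG (17.8%), which the whole element contains. The others were the E box CACGTG (6.02%), the GC box GGGCGG (32.7%), the TATA box TATAAA (12.4%), the CCAAT box (33.8%) and the AP-1 consensus TGANTCA (6.75%). Ptgs2 held a C/EBP match beginning 69 bases before the start, an NF-kB match 23 bases before it and a GC box 170 bases before it, outside the bases shown. Alox5 held 2 NF-kB matches, 53 and 35 bases before the start, and the one nearer the start overlaps a GC box. Hdc held a GC box 48 bases before the start. The Ptger2 promoter (chr14:44987861-44988110) held a CCAAT box 160 bases before the start, and the window of Daglb held none of these letters. A match is a description of the sequence and no evidence of binding, and the NF-kB letters are common.

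Values are the deposited normalized counts, in which each transcript was counted through a fluorescent barcode without amplification. Barcode counts recovered from them summed to 23296 to 443821 per sample, with a median of 179364, and triple combination sample 2 was the shallowest. Genes were tested with limma on log2(normalized count + 1) in a single fit of the 5 groups, for the 420 genes whose mean on this log2 scale exceeded, in 1 group or more, a background limit equal to 29.3 normalized counts, and a gene is called where its two-sided p, adjusted over all 420 by the method of Benjamini and Hochberg, was under 0.05. All 5 genes passed this filter, Ptger2 and Daglb through entinostat alone, entinostat with anti-PD-1 and the triple combination only. Fold changes are on that log2 scale with standard errors (SE). The labels do not tie samples to separate animals, so that p-values measure the spread between these samples, which may be technical. Of 13 neutrophil genes on the panel 9 passed the filter (S100a9 stood at 1959 normalized counts or more in every sample), while Ly6g, the transcript of the antigen used for selection, averaged under the limit in every group. The epithelial gene Cdh1 was present at 717 to 1310 normalized counts in all samples. In RNA of bulk isolates, fewer cells of a type and less RNA per cell cannot be told apart. The samples lay on 2 cartridges, as the file headers show: cartridge 1 with both groups that had no anti-CTLA-4 but had entinostat, 1 sample of the triple combination and 3 of vehicle, cartridge 2 with the 4 of entinostat with anti-CTLA-4, 3 of the triple combination and 3 of vehicle.

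**Figure D1:**
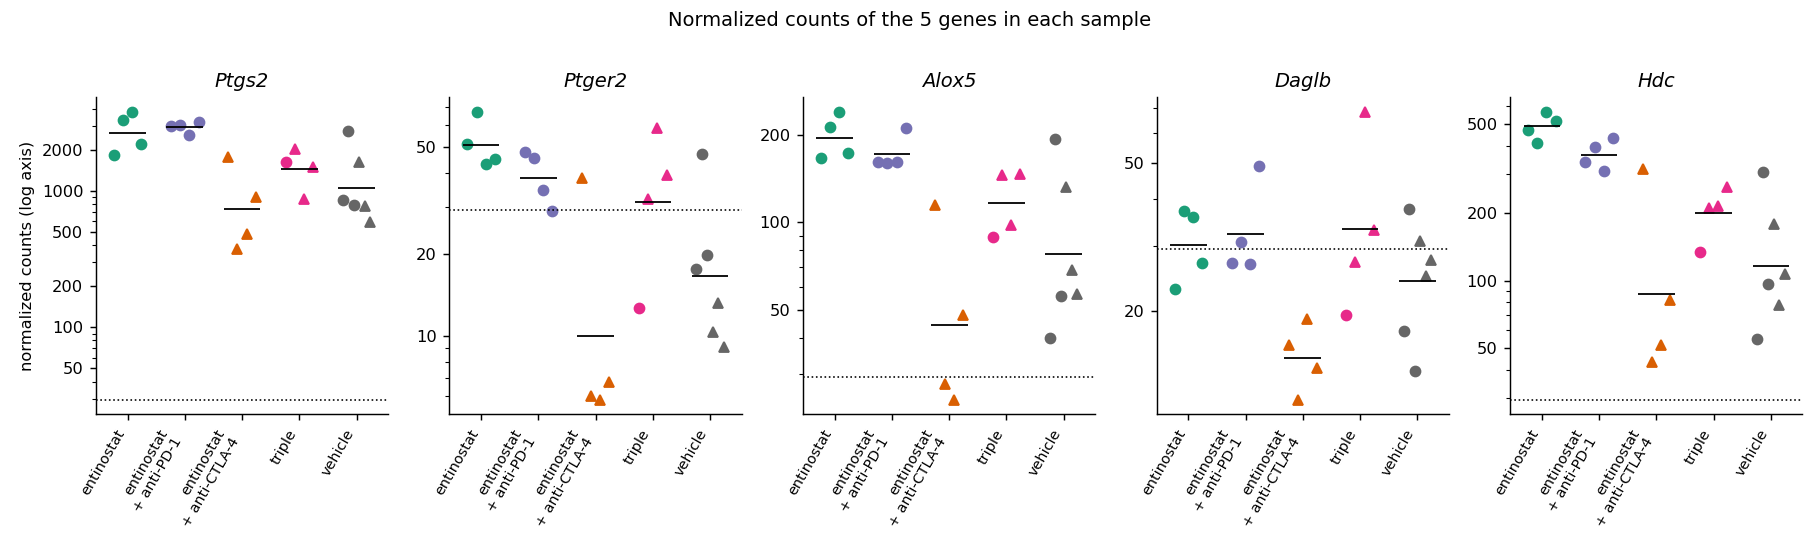
Normalized counts (log axis, each panel with its own range) of the 5 genes in each sample. Each point is 1 sample, circles for cartridge 1 and triangles for cartridge 2, bars are group means of log2(count + 1) turned back to counts, and the dotted line is the background limit of 29.3. Hdc is the only gene whose 4 entinostat samples all lie above all 6 vehicle samples, and in every panel the 4 samples of entinostat with anti-CTLA-4 lie below the 4 of entinostat alone.

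Ptgs2, the cyclooxygenase gene, was higher after entinostat alone and after entinostat with anti-PD-1 than in vehicle, and was lower where anti-CTLA-4 had been added to entinostat. It stood at 1832, 3286, 3800 and 2224 normalized counts in the samples of entinostat alone and at 3012, 3067, 2587 and 3177 in those of entinostat with anti-PD-1. In entinostat with anti-CTLA-4 it stood at 1770, 376, 487 and 896, in the triple combination at 1626, 2036, 870 and 1488, and in vehicle it ran from 592 through a median of 826 to 2732. All 8 samples of these first 2 groups were above the vehicle mean of 1231, and both groups overlapped vehicle because vehicle sample 2 reached 2732. The log2 fold change against vehicle was 1.34 ± 0.42 (SE, limma adjusted p = 0.0204) for entinostat alone, or 2.53-fold, and 1.48 ± 0.42 (adjusted p = 0.0257) with anti-PD-1, or 2.79-fold. With anti-CTLA-4 the fold change against vehicle was -0.53 ± 0.42 (adjusted p = 0.960) and in the triple combination 0.44 ± 0.42 (adjusted p = 0.505). Neither of these passed. By mean the order was entinostat with anti-PD-1, entinostat alone, triple combination, vehicle and entinostat with anti-CTLA-4, and no neighbours in that order differed by the limma test. Of 17 tested genes known to be induced by NF-kB, as Ptgs2 is, 13 rose with entinostat alone and 9 with entinostat with anti-PD-1. Their median log2 fold changes were 1.37 and 1.30, against 0.50 and 0.29 over all 420 genes, of which 36.2% and 20.5% were called higher. None was called for entinostat with anti-CTLA-4 or the triple combination, where 0% of all 420 genes were. The call for entinostat alone was lost without entinostat sample 2 (adjusted p = 0.0629) or 3 (0.0747), without vehicle samples V1 and V2 (1.01, adjusted p = 0.101), with cartridge as a block (1.15, adjusted p = 0.0609) and after median centring (0.80, adjusted p = 0.0634). It was also lost with DESeq2 (0.70, adjusted p = 0.0766), and over all alternatives tried its adjusted p ran from 1.52e-05 to 0.887.

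Ptger2, the gene of the prostaglandin E2 receptor EP2, rose with entinostat alone, from few counts. It stood at 51.4, 67.3, 43.3 and 45.0 normalized counts after entinostat alone and at 47.9, 45.3, 34.5 and 28.8 with anti-PD-1 added. It stood at 38.4, 6, 5.80 and 6.75 in entinostat with anti-CTLA-4, at 12.7, 32.1, 58.7 and 39.3 in the triple combination, and in vehicle from 9.14 through a median of 15.5 to 47.0. One sample of entinostat with anti-CTLA-4, sample a, stood far above the other 3 of its group, and the highest vehicle sample lay within the range of entinostat alone. The log2 fold change was 1.55 ± 0.49 (SE, limma adjusted p = 0.0203) for entinostat alone, 1.15 ± 0.49 (adjusted p = 0.0991) with anti-PD-1, -0.69 ± 0.49 (adjusted p = 0.960) with anti-CTLA-4 and 0.87 ± 0.49 (adjusted p = 0.384) in the triple combination, and only the first was called. These levels rested on 6 to 40 barcode counts per sample, against a mean of 2.88 to 9.00 counts for the 8 negative controls. In 3 samples, 2 of vehicle and 1 of entinostat with anti-CTLA-4, Ptger2 was under 2 times the mean of the negative controls, so that the low end of its range is close to background. With the background subtracted the fold change for entinostat alone was 1.88 (adjusted p = 0.0258). The call was lost without entinostat sample 2 (adjusted p = 0.0639), without vehicle samples V1 and V2 (1.27, adjusted p = 0.0926) and with DESeq2 (0.86, adjusted p = 0.0811), and the range over all alternatives was 1.28e-05 to 0.706. The order of the means was entinostat alone, entinostat with anti-PD-1, triple combination, vehicle and entinostat with anti-CTLA-4, and no neighbours differed by the limma test.

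**Figure D2:**
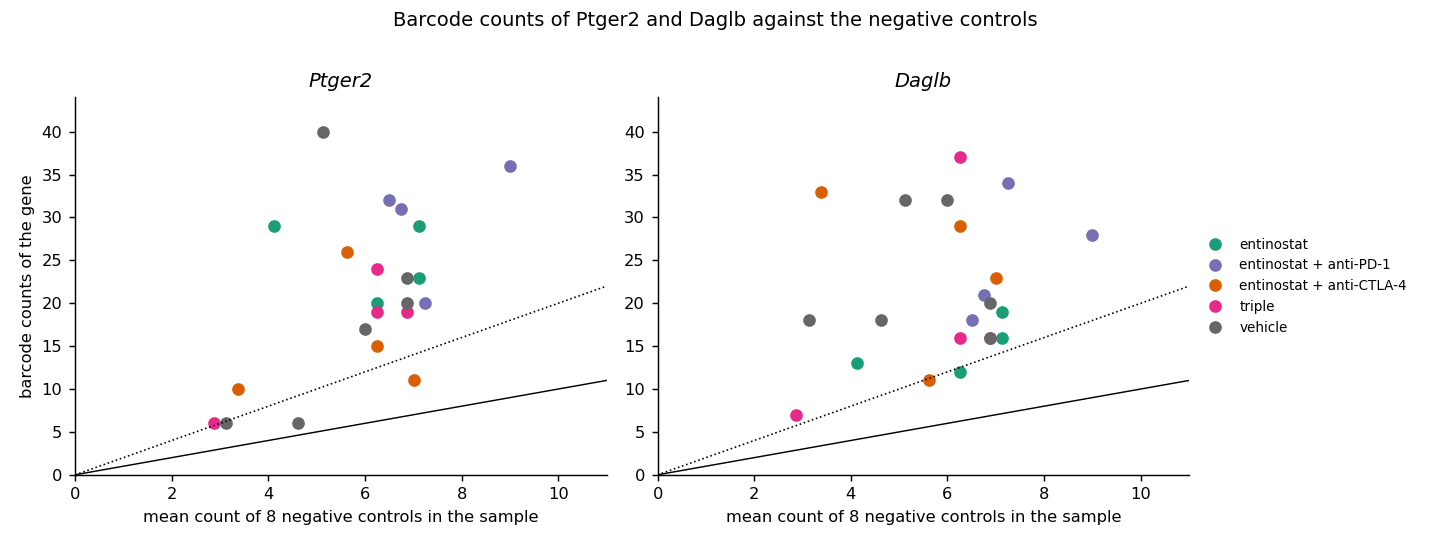
Barcode counts of Ptger2 and Daglb (vertical axis) against the mean count of the 8 negative controls of the same sample (horizontal axis), 1 point per sample, coloured by group. The solid line marks equality and the dotted line 2 times the controls: Ptger2 had 6 to 40 counts and Daglb 7 to 37, and the points near the dotted line are those whose level is hardest to tell from background.

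Alox5, the 5-lipoxygenase gene, followed Ptgs2. It stood at 167, 214, 241 and 173 normalized counts after entinostat alone and at 162, 161, 162 and 212 with anti-PD-1. It stood at 115, 27.6, 24.4 and 47.9 with anti-CTLA-4, at 89.4, 145, 97.8 and 147 in the triple combination, and in vehicle from 39.9 through a median of 62.3 to 194. Each of these first 8 samples exceeded 5 or more of the 6 vehicle samples, and the ranges overlapped at vehicle sample 2. The log2 fold change was 1.33 ± 0.41 (SE, limma adjusted p = 0.0182) for entinostat alone, or 2.51-fold. It was 1.14 ± 0.41 (adjusted p = 0.0501) with anti-PD-1, just outside the threshold, -0.81 ± 0.41 (adjusted p = 0.960) with anti-CTLA-4 and 0.58 ± 0.41 (adjusted p = 0.408) in the triple combination. With anti-PD-1 it passed without vehicle sample 2 (adjusted p = 0.00748) or 3 (0.0324) or without entinostat with anti-CTLA-4 sample a (0.0155), 1 (0.0485) or b (0.0454), and without entinostat sample 3 the value of entinostat alone missed the threshold (adjusted p = 0.0611). The value of entinostat alone also missed it without vehicle samples V1 and V2 (1.17, adjusted p = 0.0822) and with DESeq2 (0.68, adjusted p = 0.0551), and its range over all alternatives was 4.61e-06 to 0.763. The means ran in the same order as for Ptger2, with no neighbours that differed by the test.

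Daglb, the gene of diacylglycerol lipase beta, did not pass in any comparison with vehicle. It stood at 23.0, 37.1, 35.8 and 27.0 normalized counts after entinostat alone, at 26.9, 30.7, 26.9 and 49.0 with anti-PD-1 and at 16.3, 11.6, 19.1 and 14.1 with anti-CTLA-4. In the triple combination it stood at 19.6, 27.1, 68.4 and 33.1, and in vehicle it ran from 13.9 through a median of 26.1 to 37.6. All groups overlapped vehicle, and the highest value, 68.4, came from 7 barcode counts in triple combination sample 2, the shallowest sample. The log2 fold change was 0.31 ± 0.30 (SE, limma adjusted p = 0.411) for entinostat alone, 0.41 ± 0.30 (adjusted p = 0.361) with anti-PD-1, -0.65 ± 0.30 (adjusted p = 0.960) with anti-CTLA-4 and 0.44 ± 0.30 (adjusted p = 0.404) in the triple combination. The 95% interval for entinostat alone, -0.32 to 0.94, leaves room for an increase of nearly 2 times. The sign of the fold change for entinostat alone turned after median centring (-0.23) and with edgeR and TMM factors (-0.37). By mean log2 level the order was triple combination, entinostat with anti-PD-1, entinostat alone, vehicle and entinostat with anti-CTLA-4, and no neighbours differed by the limma test. Daglb had 7 to 37 barcode counts per sample, and it was under 2 times the negative controls in 2 samples.

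Hdc, the gene of histidine decarboxylase, had the largest fold change of the 5 genes against vehicle with entinostat alone and with entinostat with anti-PD-1, and its values in entinostat alone and in entinostat with anti-PD-1 did not overlap those of vehicle. It stood at 471, 411, 566 and 517 normalized counts after entinostat alone and at 338, 394, 308 and 431 with anti-PD-1. It stood at 316, 43.2, 51.6 and 82.3 with anti-CTLA-4, at 134, 211, 215 and 262 in the triple combination, and in vehicle from 54.9 through a median of 101 to 304. Groups that lay wholly above vehicle were found for 15.5% of the 420 genes with entinostat alone and for 8.81% with entinostat with anti-PD-1, and of the 5 genes Hdc was the one that did so in each. The log2 fold change was 2.07 ± 0.46 (SE, limma adjusted p = 0.00769) for entinostat alone, or 4.19-fold, and 1.65 ± 0.46 (adjusted p = 0.0249) with anti-PD-1, or 3.13-fold. It was -0.40 ± 0.46 (adjusted p = 0.960) with anti-CTLA-4, where sample a alone lay above vehicle, and 0.78 ± 0.46 (adjusted p = 0.384) in the triple combination. The order of the means was that of Ptger2, again with no neighbours that differed by the test. The call for entinostat alone held without each sample in turn (adjusted p at most 0.0344) and in all but 2 of the other alternatives, Cdh1 as a covariate (1.00, adjusted p = 0.303) and neutrophil centring (0.28, adjusted p = 0.293). The call for entinostat with anti-PD-1 was lost without any one of 7 samples (vehicle sample 1, 4, V1 or V2, or sample 1, 2 or 4 of its own group, adjusted p 0.0542 to 0.0862), and Ptgs2 lost its call without the same 7. Genes of mast cells and basophils, known sources of Hdc, were low. The 8 on the panel summed to 88.6 to 151 normalized counts with entinostat alone and 82.5 to 133 with entinostat with anti-PD-1. They summed to 26.9 to 114 with entinostat with anti-CTLA-4, 32.8 to 235 in the triple combination and 43.6 to 92.9 in vehicle. These sums hold the background of 8 probes. Per probe the mean of the scaled negative controls ran from 7.31 to 16.5 and from 8.63 to 10.4 in the first 2 groups. It ran from 1.96 to 8.31, 3.30 to 28.1 and 4.66 to 7.04 in the other groups, in the same order. Differences between the sums therefore cannot be read as mast cell signal. The protease genes Cpa3, Tpsb2 and Cma1 and the IgE receptor gene Fcer1a averaged 10.5 or less in every group. Il1rl1, the 1 gene of this list over the limit on the log2 scale, passed it only through entinostat alone, where it averaged 31.7, and it averaged 29.5 with anti-PD-1, 12.7 with anti-CTLA-4, 25.8 in the triple combination and 13.8 in vehicle. Il1rl1 was called higher with entinostat alone (1.17) and lower with anti-CTLA-4 added to entinostat (-1.44). Of all genes 36.2% were called higher in the first of these and 42.6% lower in the second. Il1rl1 passed the filter only through the group that is high in both, where the scaled negative controls also stood above those of vehicle. So its calls give no measure of likeness to Hdc, and the part of background in them was not tested.

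Of the 5 genes 4 were called for entinostat alone, all higher, where 40.0% of all 420 genes were called and 36.2% were called higher. In counts, 152 genes were called higher and 16 lower, and the median gene was higher by 0.50 on the log2 scale. Once each sample was centred on its median gene the split was 95 higher and 81 lower, and Ptger2 (1.02, adjusted p = 0.0427), Alox5 (0.79, adjusted p = 0.0341) and Hdc (1.53, adjusted p = 0.00550) were still called. For entinostat with anti-PD-1, 2 of 5 were called (Ptgs2 and Hdc), both higher, where 21.9% of all genes were called and 20.5% called higher. For entinostat with anti-CTLA-4 and for the triple combination 0 of 5 were called, where 0% of all genes were by limma, and edgeR and DESeq2 likewise called 0, with 6 and 59 of the 420 genes at an unadjusted p under 0.05. Within cartridge 1 alone entinostat gave 1.12 for Ptgs2 (adjusted p = 0.0584), 0.97 for Ptger2 (0.0479), 1.36 for Alox5 (0.0405) and 2.05 for Hdc (0.0186), and entinostat with anti-PD-1 gave 1.26 for Ptgs2 (0.0760) and 1.63 for Hdc (0.0707), so that neither call of the pair held there. Triple combination sample a lies by lane among vehicle samples and vehicle sample 3 beside those of the triple combination. Without this pair 4 of 5 genes were called for entinostat alone and 3 of 5, Alox5 added, for entinostat with anti-PD-1. The share of all 420 genes called without the pair is not given here, so the added call cannot be read as a trait of Alox5. With Cdh1 as a covariate 0 of 5 were called for entinostat alone or for entinostat with anti-PD-1.

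**Figure D3:**
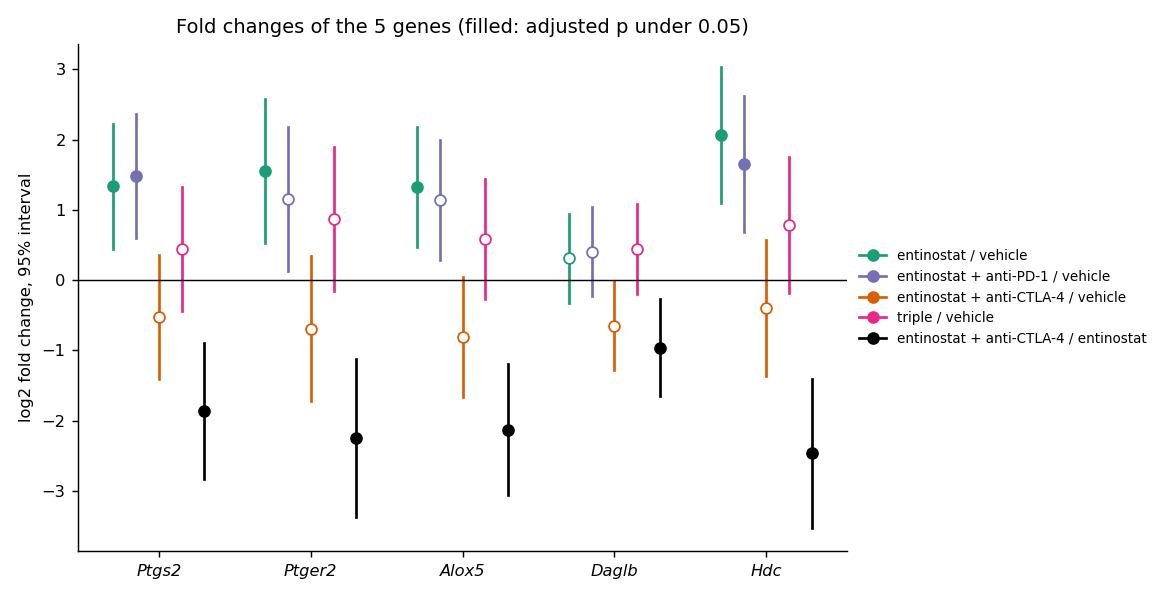
Log2 fold change (vertical axis) of the 5 genes with 95% intervals from limma, coloured by comparison. Filled points passed an adjusted p of 0.05: Ptgs2, Ptger2, Alox5 and Hdc for entinostat over vehicle, Ptgs2 and Hdc for entinostat with anti-PD-1 over vehicle, and all 5 genes, lower, for entinostat with anti-CTLA-4 over entinostat alone.

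Adding anti-CTLA-4 to entinostat went with lower normalized counts of all 5 genes, and the 4 samples of entinostat with anti-CTLA-4 lay below the 4 of entinostat alone in each of them. The mean of the scaled negative controls ran from 1.96 to 8.31 normalized counts with anti-CTLA-4 added and from 7.31 to 16.5 with entinostat alone. Relative to that mean in the same sample Daglb did not fall. It stood at 3.15, 2.25, 2.67 and 1.92 times with entinostat alone and at 1.96, 4.64, 9.78 and 3.29 times with anti-CTLA-4 added. Ptger2, also near background, overlapped on this scale. It stood at 7.03, 4.07, 3.23 and 3.20 times with entinostat alone and at 4.62, 2.40, 2.96 and 1.57 times with anti-CTLA-4 added. With background subtracted Ptger2 kept its call (-2.49, limma adjusted p = 0.00918) and Daglb lost it (-0.68, adjusted p = 0.162). The log2 fold change was -1.86 ± 0.46 for Ptgs2 (SE, limma adjusted p = 0.00451), -2.24 ± 0.54 for Ptger2 (adjusted p = 0.00383), -2.13 ± 0.45 for Alox5 (adjusted p = 0.00257), -0.96 ± 0.33 for Daglb (adjusted p = 0.0252) and -2.47 ± 0.51 for Hdc (adjusted p = 0.00257). So 5 of 5 genes were called, where 48.3% of all 420 genes were called and 42.6% were called lower. In normalized counts the groups did not overlap for 5 of 5, where 22.6% of all genes lay wholly lower. The median gene stood at -0.67, with 24 genes called higher and 179 lower, against 121 higher and 104 lower after median centring, where Daglb lost its call (-0.24, adjusted p = 0.432) and the other 4 genes kept theirs. Sample a of entinostat with anti-CTLA-4 stood nearest to entinostat alone in Ptgs2, Ptger2, Alox5 and Hdc. Without any 1 sample the calls of those 4 genes held (adjusted p at most 0.0258), and Daglb lost its call without entinostat sample 2 (adjusted p = 0.0712) or 3 (0.0695) or without entinostat with anti-CTLA-4 sample 1 (0.0824) or 3 (0.0621). The 2 groups share no cartridge, and with cartridge as a block, which rests on vehicle and the triple combination, Ptgs2 stood at -1.49 (adjusted p = 0.0679) and the others passed. With quantile normalization the sign for Daglb turned (0.23, adjusted p = 0.557), and with Cdh1 as a covariate 0 of 5 genes were called.

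The other antibody steps gave no call among the 5 genes or among all 420 (0% of genes by limma). Anti-PD-1 added to entinostat gave log2 fold changes of 0.14 for Ptgs2, -0.40 for Ptger2, -0.18 for Alox5, 0.10 for Daglb and -0.42 for Hdc, with 95% intervals that all hold 0 (the widest, for Ptger2, -1.53 to 0.73). Anti-CTLA-4 added to entinostat with anti-PD-1 gave -1.04 ± 0.46 for Ptgs2, -0.86 ± 0.51 for Hdc and -0.56 ± 0.45 for Alox5 (limma adjusted p = 0.602, 0.694 and 0.739), and in these 3 genes the 4 samples of the triple combination lay below the 4 of entinostat with anti-PD-1, as 13.3% of all genes did. Both antibodies together gave -1.28 ± 0.51 for Hdc and -0.74 ± 0.45 for Alox5 (adjusted p = 0.340 and 0.402), both wholly below entinostat alone, as 18.6% of all genes were. At an unadjusted p under 0.05 stood 7 genes of 420 for anti-PD-1 added to entinostat, 33 for anti-CTLA-4 added to the pair with anti-PD-1 and 53 for both antibodies, and edgeR and DESeq2 called 0 in each.

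Anti-PD-1 added to entinostat with anti-CTLA-4 went the other way, with higher values in all 5 genes that did not pass. The log2 fold changes were 0.97 for Ptgs2, 1.56 for Ptger2, 1.39 for Alox5, 1.09 for Daglb and 1.18 for Hdc, with limma adjusted p between 0.148 and 0.181, and 115 of the 420 genes were at an unadjusted p under 0.05, with 0 called by limma, edgeR or DESeq2. In Daglb all 4 samples of the triple combination were above those of entinostat with anti-CTLA-4 in normalized counts, as 1.90% of all genes were. The nearest samples stood at 19.56 (triple combination sample a) and 19.13 (entinostat with anti-CTLA-4 sample b). Relative to the negative controls of the same sample the groups overlapped, at 2.33 to 5.92 times in the triple combination and 1.96 to 9.78 times in entinostat with anti-CTLA-4. Without entinostat with anti-CTLA-4 sample a 5 of 5 genes passed (adjusted p 0.00347 to 0.0194), so that 1 sample decides these calls, and without triple combination sample a 2 of 5 did (Ptger2 and Daglb). The difference between the effect of anti-CTLA-4 with and without anti-PD-1, the interaction, was 0.83 for Ptgs2, 1.96 for Ptger2, 1.57 for Alox5, 1.00 for Daglb and 1.60 for Hdc. None was called (adjusted p 0.250 to 0.363), where limma and edgeR called 0 of all genes with 81 and 43 at an unadjusted p under 0.05 and DESeq2 called 2, and without entinostat with anti-CTLA-4 sample a 3 of 5 were (Ptger2, Alox5 and Hdc). The share of all 420 genes called with these samples left out is not given here. Those counts therefore cannot be read as a trait of the 5 genes. Over the 4 groups given entinostat, the 2 with anti-CTLA-4 were lower than the 2 without it by -1.45 in Ptgs2 (adjusted p = 0.00403), -1.26 in Ptger2 (0.0163), -1.35 in Alox5 (0.00422) and -1.67 in Hdc (0.00403). That is 4 of 5 genes, where 32.1% of all genes were called and 30.0% lower, and Daglb stood at -0.46 (adjusted p = 0.137), which passed without triple combination sample 2 (0.0230). The F test over the 5 groups called the same 4 genes (adjusted p 0.00547 to 0.0143) and not Daglb (0.0577), where it called 33.1% of all genes. With cartridge as a block none of the 5 passed either of these tests.

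Leukocyte and neutrophil genes were called in the comparisons in which Ptgs2 and Hdc were called against vehicle or with anti-CTLA-4 added to entinostat, whereas Daglb was called only in the last of these. Of 9 tested neutrophil genes 9 rose with entinostat alone and 8 with entinostat with anti-PD-1, 0 with entinostat with anti-CTLA-4 or the triple combination, and 9 fell when anti-CTLA-4 was added to entinostat. Over all 420 genes 36.2% were called higher with entinostat alone, 20.5% higher with entinostat with anti-PD-1 and 42.6% lower with anti-CTLA-4 added. For entinostat with anti-CTLA-4 and for the triple combination against vehicle 0% of all genes were called, so no list could hold a call there. The 13 on the panel summed to 20782 to 40583 normalized counts with entinostat alone, 23316 to 30743.5 with anti-PD-1, 3456 to 21879 with anti-CTLA-4, 15115 to 19331 in the triple combination and 5742 to 24523.5 in vehicle. Of 6 tested genes carried by all leukocytes (Ptprc, Itgb2, Tyrobp, Laptm5, Vav1 and Was) 6, 5, 0 and 0 rose in the 4 treated groups and 6 fell with anti-CTLA-4 added. They summed to 3357 to 5036 with entinostat alone, 3571 to 4726 with anti-PD-1, 623 to 3095 with anti-CTLA-4, 1766 to 3137 in the triple combination and 854 to 3740 in vehicle. None of 6 tested macrophage genes passed in any of these comparisons, but they moved the same way as the leukocyte genes. All 6 were higher with entinostat alone (median 0.65, against 0.50 over all genes) and with entinostat with anti-PD-1 (0.47, against 0.29). All 6 were lower with anti-CTLA-4 added to entinostat (median -1.37, against -0.67). Cdh1, of epithelial cells, was lower with entinostat alone (-0.41, adjusted p = 0.0418) and higher with anti-CTLA-4 added to it (0.46). Of 5 endothelial genes 3 rose with entinostat alone (Sele, Selp and Ptprb) and 3 fell with anti-CTLA-4 added, of 4 tested fibroblast genes 1 rose and 1 fell in each of these comparisons, and the 1 lymphocyte gene on the panel was not tested.

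The level of each gene relative to the mean of these 6 leukocyte genes in the same sample separated the 5 genes. Alox5 was nearly level on this scale, at -1.12 ± 0.14, -1.16 ± 0.06, -1.28 ± 0.16 and -1.18 ± 0.35 on the log2 scale in entinostat alone, with anti-PD-1, with anti-CTLA-4 and in the triple combination (SD, n = 4 each), and vehicle stood at -1.05 ± 0.14 (SD, n = 6). Ptgs2 and Ptger2 also kept no difference, with log2 fold changes of -0.05 and 0.16 for entinostat alone (limma adjusted p = 0.887 and 0.706) and 0.10 and -0.28 for anti-CTLA-4 added (adjusted p = 0.787 and 0.581). Hdc stayed higher with entinostat alone, at 0.19 ± 0.36 against -0.48 ± 0.25 in vehicle, a log2 fold change of 0.68 (adjusted p = 0.0100), and fell by 0.50 with anti-CTLA-4 added (adjusted p = 0.0445). Entinostat sample 2, at -0.32, lay within the vehicle range of -0.84 to -0.20. Daglb turned. Relative to leukocyte genes it was lower with entinostat alone, at -3.78 ± 0.16 against -2.70 ± 0.48 in vehicle (-1.08, adjusted p = 0.0134). It was higher by 1.01 with anti-CTLA-4 added (adjusted p = 0.0227). The mean of the leukocyte genes was 7.35 in vehicle, 8.74 with entinostat alone and 6.77 with anti-CTLA-4 added. The median of all 420 genes moved less, by 0.50 and -0.67, so it turns on this scale as well. The turn is therefore no trait of Daglb alone.

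Relative to the 9 neutrophil genes, a scale added after the data had been seen, Hdc no longer passed for entinostat alone (0.28, adjusted p = 0.293) or for anti-CTLA-4 added (-0.40, adjusted p = 0.191). It stood at -0.32 ± 0.42 with entinostat alone and -0.59 ± 0.40 in vehicle. On the same scale Alox5 was lower with entinostat alone (-0.47, adjusted p = 0.0447), as was Daglb (-1.48, adjusted p = 0.00293). Daglb was higher with anti-CTLA-4 added (1.11, adjusted p = 0.0301). The mean of the neutrophil genes was 7.46 in vehicle, 9.25 with entinostat alone and 7.18 with anti-CTLA-4 added. The median of all 420 genes, at 0.50 and -0.67 before centring, therefore turns on this scale too. The part of leukocyte content in the fold changes of the 5 genes was not tested beyond these scales.

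**Figure D4:**
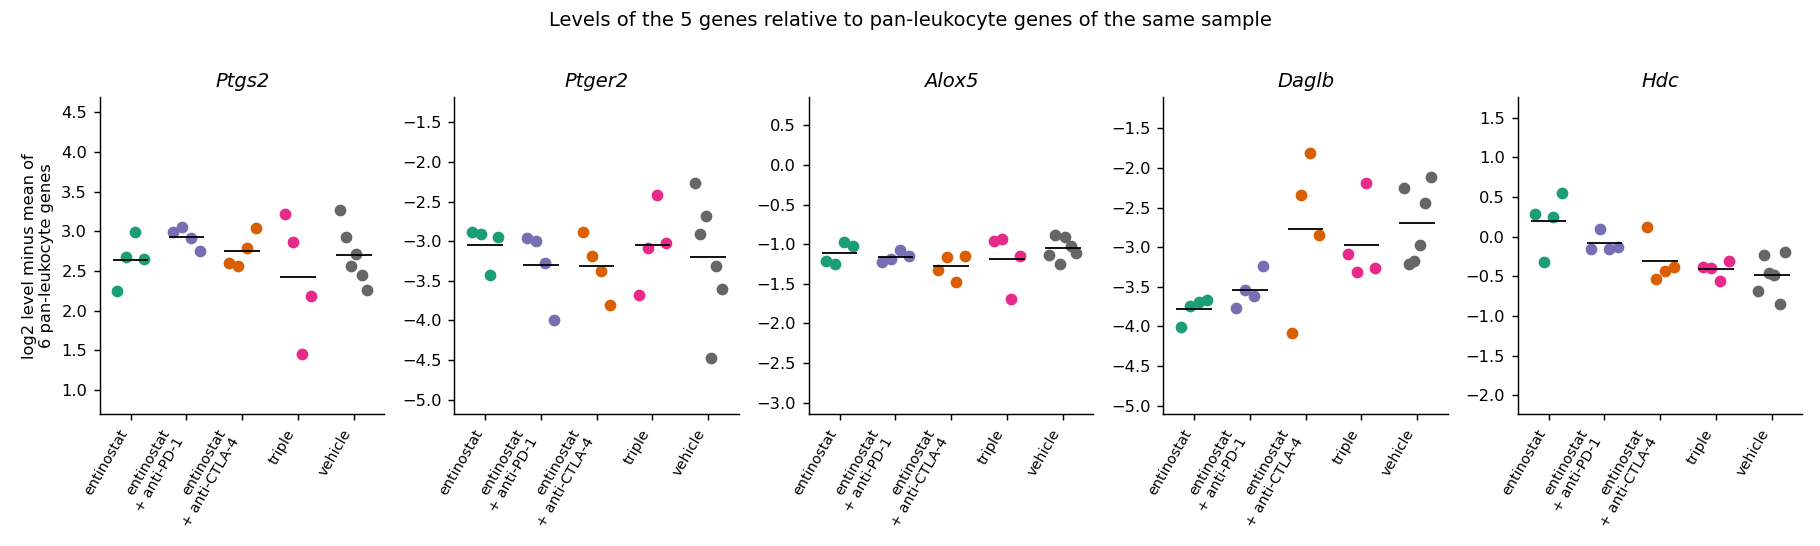
Log2 level of each gene minus the mean of 6 pan-leukocyte genes in the same sample (vertical axis, the same span of 4 log2 units in each panel), 1 point per sample with bars for group means. Alox5 lies between -1.69 and -0.88 in all samples, Hdc is highest with entinostat alone, and Daglb is lowest with entinostat alone.

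Across the 22 samples, which share lanes, depth and scaling, Ptgs2, Alox5 and Hdc went together. Ptger2 followed them less closely and Daglb least. Pearson's r of the log2 levels was 0.956 between Alox5 and Hdc, 0.939 between Ptgs2 and Alox5, 0.902 between Ptgs2 and Hdc, and 0.762 to 0.857 between Ptger2 and these 3. Daglb correlated with the others at 0.519 to 0.664, and at 0.0123 to 0.151 once each sample was centred on its median gene. With group means removed r was 0.776 to 0.932 among Ptgs2, Alox5 and Hdc. It was then 0.505 to 0.690 between Ptger2 and these 3, and 0.201 to 0.437 between Daglb and the others. The median r of each gene with all other tested genes was itself 0.541 to 0.660, so that r describes a shift common to much of the panel. The 3 genes most like Ptgs2 were Ccrl2 (0.973), Siglecf (0.966) and Il1b (0.962), and those most like Ptger2 were Olr1 (0.915), Nr4a2 (0.913) and Cxcl2 (0.908). Alox5 was most like Tyrobp (0.980), Tlr13 (0.980) and Ptprc (0.980), of which Tyrobp and Ptprc are in the pan-leukocyte list. Daglb was most like Cxcl16 (0.834), Was (0.812) and Vamp2 (0.799), and Hdc like Il10ra (0.989), Fpr2 (0.983) and Birc3 (0.982).

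**Figure D5:**
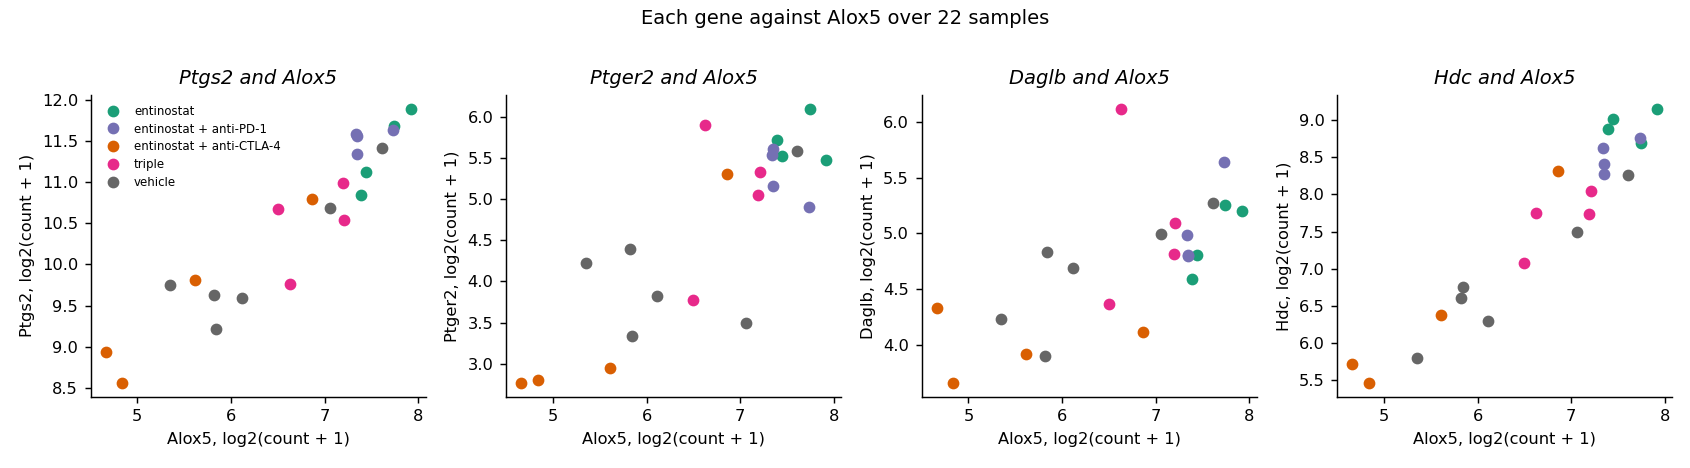
Log2(normalized count + 1) of Ptgs2, Ptger2, Daglb and Hdc (vertical axes) against that of Alox5 (horizontal axes), 1 point per sample, coloured by group. Hdc (r = 0.956) and Ptgs2 (0.939) run along a line through all groups, and Daglb (0.664) scatters, with triple combination sample 2 at its top.

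Of 52 further genes of lipid mediator and histamine pathways 14 were on the panel and 7 were tested. With entinostat alone 3 rose: the constitutive cyclooxygenase gene Ptgs1 (0.60 ± 0.18, SE, limma adjusted p = 0.0176), Fpr2, a receptor for lipoxin and peptide ligands (1.83 ± 0.48), and Ptafr, the receptor of platelet-activating factor (1.52 ± 0.48). These 3 of 7 are set against 36.2% of all genes called higher. With entinostat with anti-PD-1 the same 3 rose (0.56, 1.47 and 1.47) and with them Cysltr1, a receptor of cysteinyl leukotrienes (1.37 ± 0.47), or 4 of 7 against 20.5% of all genes. The median log2 fold change of the 7 was 0.81 for entinostat alone, 1.00 with anti-PD-1, -0.19 with anti-CTLA-4 and 0.54 in the triple combination, against 0.50, 0.29, -0.13 and 0.30 over all 420 genes. Lta4h, which completes leukotriene B4, stood at 178 ± 27.8 normalized counts with entinostat alone (SD, n = 4) and at 176 ± 27.1 in vehicle (SD, n = 6), which is 0.01 ± 0.14 on the log2 scale. The leukotriene B4 receptor gene Ltb4r1 (0.81 ± 0.45) and Anxa1, of annexin A1, a ligand of Fpr2 (-0.29 ± 0.17), were not called either. None of the 7 passed for entinostat with anti-CTLA-4 or the triple combination, where 0% of all genes did. With anti-CTLA-4 added to entinostat 4 fell (median -1.01, against -0.67 over all genes, of which 42.6% were called lower). So with entinostat alone and with anti-CTLA-4 added the share of the list was near that of the panel. Under the limit in every group were the prostaglandin D2 genes Ptgds, Hpgds, Ptgdr and Ptgdr2, the prostaglandin-degrading enzyme gene Hpgd, the lipoxygenase gene Alox15 and Ltb4r2.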

How the data were processed

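Barcode counts of 22 samples on a NanoString myeloid panel (655 endogenous and 20 housekeeping genes, with 8 negative and 6 positive control probes) were the data. The deposited values are normalized barcode counts, a signal per gene that the authors scaled per sample, as the file headers and the values show, and for the steps of that scaling the sources used here give nothing. limma is named, without a version, in the submitters' processing notes. Apart from values listed at 1, values were whole multiples of 1 step per sample, so that barcode counts could be recovered. Of such values up to 200, 100% came out whole within 0.1 count. Values listed at 1, up to 32 genes in a sample, were given a count of 1. With the recovered counts edgeR called 151 genes for entinostat against vehicle, against 168 by limma. Depth was 23296 to 443821 counts per sample, and the scaling equalised the housekeeping genes (geometric mean 172 to 194).

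Values were taken as log2(value + 1) and genes kept where a group mean of these log2 values, not of the counts, was above the negative control mean on the same scale by more than 2 SD (420 kept, 235 left out). The 5 group means were fitted in limma 3.58.1 (R 4.3.3, 17 residual and 2.14 prior degrees of freedom). In both groups given anti-CTLA-4, samples a and b share a column name, and their letters only tell them apart. No 2 samples agreed within counting noise. The alternatives were median, quantile and pan-leukocyte centring, edgeR 4.0.16, DESeq2 1.42.0, a pseudocount of 10, no filter, background subtraction, sample weights, cartridge, a Cdh1 covariate, subsets of samples and each sample left out, and neutrophil centring was added after the data had been seen. The members and gene lists were chosen with earlier results of these data known. The genes named are the 5 members, the 3 tested genes with the highest Pearson correlation to each, and the tested genes of the lists (lipid mediator, neutrophil, pan-leukocyte, macrophage, mast cell and basophil, epithelial, fibroblast, endothelial, lymphocyte and NF-kB-induced genes), named after their values were seen where a sentence singles some out. Replicate numbers were checked for pairing: 7 of 24 same-numbered pairs had a correlation of deviations over 0.1 (range -0.654 to 0.493), so the numbers were not taken as pairs. Promoter sequences are from RefSeq, build GRCm38.p6.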

Additional observations from a re-analysis of the deposited data

Results flagged for a closer look

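Among 25 groups of 4 or 6 samples examined for a sample far from the rest, 2 held one, and chance flags about 1 in 20 groups. Ptger2 in entinostat with anti-CTLA-4 stood at 38.41 normalized counts in sample a, with a gap to the next sample of 0.926 of the group's range on the log2 scale. Alox5 in entinostat with anti-PD-1 stood at 211.87 normalized counts in sample 4, with a gap of 0.966 of the range on the log2 scale. For Daglb the 4 samples of entinostat with anti-PD-1 all lay above the vehicle mean and the 4 of entinostat with anti-CTLA-4 all below it, a difference of 1.05 on the log2 scale between the fold changes of these groups against vehicle, and that difference was not tested.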

How the results depend on the processing

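Of 2145 recomputed fold changes of the 5 genes, 1947 kept their direction and side of the threshold, 82 lost the call, 48 gained it and 68 changed sign, 38 of these for Daglb and 26 under centring on leukocyte or neutrophil genes. The cause of the changes was not tested. Fold changes that changed sign, on the log2 scale, were as follows. With Cdh1 as a covariate they were Daglb -0.0707 for entinostat alone against vehicle, Alox5 0.0904 for anti-PD-1 added to entinostat, Ptger2 0.20 for both antibodies added and Ptger2 0.20 for anti-CTLA-4 added to the pair with anti-PD-1. With DESeq2 they were Daglb -0.24 for entinostat alone against vehicle, Alox5 0.0137 for anti-PD-1 added to entinostat and Daglb -0.0739 for anti-CTLA-4 added to the pair with anti-PD-1. With background subtracted they were Daglb -0.0216 for entinostat alone against vehicle and Daglb -0.0712 for anti-CTLA-4 added to the pair with anti-PD-1. Within cartridge 1 they were Ptger2 -0.96 and Daglb -0.10 for the triple combination against vehicle, Daglb -0.60 for both antibodies added and Daglb -0.70 for anti-CTLA-4 added to the pair with anti-PD-1. With cartridge as a block they were Daglb -0.30 for both antibodies added and Daglb -0.39 for anti-CTLA-4 added to the pair with anti-PD-1. With edgeR and TMM factors they were Daglb -0.37 for entinostat alone against vehicle, Alox5 0.0987 for anti-PD-1 added to entinostat and Daglb -0.00121 for anti-CTLA-4 added to the pair with anti-PD-1. With edgeR and the deposited scaling there was Daglb -0.0709 for anti-CTLA-4 added to the pair with anti-PD-1. After median centring they were Daglb -0.23 for entinostat alone against vehicle and Alox5 0.0488 for anti-PD-1 added to entinostat. After neutrophil centring they were Ptgs2 -0.46, Ptger2 -0.24, Alox5 -0.47 and Daglb -1.48 for entinostat alone against vehicle and Ptgs2 0.21 and Daglb 1.11 for anti-CTLA-4 added to entinostat. After pan-leukocyte centring they were Ptgs2 -0.0545, Alox5 -0.0658 and Daglb -1.08 for entinostat alone against vehicle, Ptger2 -0.0964, Alox5 -0.11 and Daglb -0.84 for entinostat with anti-PD-1 against vehicle, Ptgs2 0.0496 and Hdc 0.18 for entinostat with anti-CTLA-4 against vehicle, Ptgs2 -0.27, Alox5 -0.13 and Daglb -0.27 for the triple combination against vehicle, Ptgs2 0.10 and Daglb 1.01 for anti-CTLA-4 added to entinostat, Ptger2 0.25 for anti-CTLA-4 added to the pair with anti-PD-1, Ptgs2 -0.32, Daglb -0.20 and Hdc -0.10 for anti-PD-1 added to the pair with anti-CTLA-4, Daglb 0.79 for the average anti-CTLA-4 effect and Ptgs2 -0.60 and Daglb -0.43 for the interaction. After quantile normalization they were Daglb -0.66 for entinostat alone against vehicle, Daglb -0.15 for entinostat with anti-PD-1 against vehicle, Daglb -0.15 for the triple combination against vehicle, Alox5 0.0139 for anti-PD-1 added to entinostat, Daglb 0.23 for anti-CTLA-4 added to entinostat, Daglb 0.11 for the average anti-CTLA-4 effect and Daglb -0.22 for the interaction. With sample weights they were Daglb -0.0158 for anti-PD-1 added to entinostat, Daglb -0.0973 for both antibodies added and Daglb -0.0815 for anti-CTLA-4 added to the pair with anti-PD-1. Without sample a of the triple combination and sample 3 of vehicle there was Ptger2 0.13 for anti-CTLA-4 added to the pair with anti-PD-1. The count of called genes was 4 of 5 for entinostat alone against vehicle, the average anti-CTLA-4 effect and the F test, 5 for anti-CTLA-4 added to entinostat, 2 for entinostat with anti-PD-1 against vehicle and 0 for the others. It moved as follows. With Cdh1 as a covariate it was 0 for entinostat alone against vehicle, 0 for entinostat with anti-PD-1 against vehicle, 0 for anti-CTLA-4 added to entinostat, 0 for the average anti-CTLA-4 effect and 0 for the F test. With DESeq2 it was 1 for entinostat alone against vehicle. Within cartridge 1 it was 0 for entinostat with anti-PD-1 against vehicle. With cartridge as a block it was 2 for entinostat alone against vehicle, 0 for entinostat with anti-PD-1 against vehicle, 0 for the average anti-CTLA-4 effect and 0 for the F test. With edgeR and TMM factors it was 1 for entinostat alone against vehicle. With edgeR and the deposited scaling it was 0 for entinostat with anti-PD-1 against vehicle. After neutrophil centring it was 2 for entinostat alone against vehicle and 1 for anti-CTLA-4 added to entinostat. After pan-leukocyte centring it was 2 for entinostat alone against vehicle, 1 for entinostat with anti-PD-1 against vehicle, 2 for anti-CTLA-4 added to entinostat, 2 for the average anti-CTLA-4 effect and 2 for the F test. With sample weights it was 4 for entinostat with anti-PD-1 against vehicle, 2 for entinostat with anti-CTLA-4 against vehicle, 4 for the triple combination against vehicle, 1 for both antibodies added, 5 for anti-PD-1 added to the pair with anti-CTLA-4 and 5 for the interaction. Without sample a of the triple combination and sample 3 of vehicle it was 2 for anti-PD-1 added to the pair with anti-CTLA-4. Without vehicle samples V1 and V2 it was 1 for entinostat alone against vehicle and 0 for entinostat with anti-PD-1 against vehicle. With each sample left out in turn the count was 2 to 4 for entinostat alone against vehicle, 0 to 4 for entinostat with anti-PD-1 against vehicle, 0 to 5 for anti-PD-1 added to the pair with anti-CTLA-4, 0 to 3 for the interaction, 4 to 5 for anti-CTLA-4 added to entinostat, 4 to 5 for the average anti-CTLA-4 effect and 4 to 5 for the F test, and 0 for the others. Fold changes that changed sign for some omission ranged from -0.037 to 0.31 for Ptgs2 in anti-PD-1 added to entinostat, -0.0987 to 0.19 for Daglb in anti-PD-1 added to entinostat, -0.21 to 0.38 for Daglb in both antibodies added, -0.58 to 0.13 for Ptger2 in anti-CTLA-4 added to the pair with anti-PD-1 and -0.30 to 0.28 for Daglb in anti-CTLA-4 added to the pair with anti-PD-1. Over all 420 genes the calls ran from 2 with Cdh1 as a covariate and 54 without vehicle samples V1 and V2 to 298 with sample weights for entinostat alone against vehicle (168 as reported), from 0 within cartridge 1 and 33 with edgeR to 279 after neutrophil centring for entinostat with anti-PD-1 against vehicle (92), from 0 with Cdh1 to 320 with sample weights for anti-CTLA-4 added to entinostat (203), from 0 with cartridge as a block to 290 with sample weights for the average anti-CTLA-4 effect (135) and from 0 with cartridge as a block to 317 with sample weights for the F test (139). The fewest barcode counts stood behind Ptger2 (6 to 40 per sample) and Daglb (7 to 37).

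With the replicate number as a block, over the 16 numbered samples, Ptgs2 stood at -0.30 for the triple combination against vehicle and Ptger2 stood at 0.12 for anti-CTLA-4 added to the pair with anti-PD-1, and the count of called genes was 2 of 5 for anti-PD-1 added to the pair with anti-CTLA-4 and the count of called genes was 1 of 5 for the interaction. The numbers do not pair these samples.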
